A study of Mus musculus with 2 samples.

Results

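The microRNA (miRNA) genes Mir130a, Mir130b, Mir301 and Mir301b form the mouse miR-130 and miR-301 family, 4 of the 2202 miRNA genes counted in the left cerebral cortex of aged mice. The members were found by gene symbol in the GENCODE M21 annotation and were picked on a measured value: Mir301 was chosen by its large difference between the libraries, and its relatives were added for comparison. The tissue came from mice of 18 to 20 months of the strain B6CASTF1/J, an F1 hybrid of C57BL/6J and CAST/EiJ. The labels give 1 group of 2 libraries of RNA under 30 nt and no treated, mutant or younger group. They number the libraries as biological replicates 1 and 2 but point to 1 donor record, so the spread between them may be technical. The labels disagree on the sex of the mice, and sex was not used. Cortex is a mixture of cells, and fewer cells of a type and less RNA per cell cannot be told apart in such a sample.

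A miRNA is cut from a hairpin in a longer transcript, and 1 strand of the resulting duplex guides Argonaute proteins to messenger RNAs. Bases 2 to 8 of the guide, the seed, pair with sites mostly in the 3' ends of messages, which are then repressed. The family is known for repressing Pparg, a nuclear receptor of fat and vessel cells. In human cells, miR-130a was linked to endothelial angiogenesis, miR-301a to NF-kappaB signalling in tumour cells, and miR-130b to growth of liver tumour cells.

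The mature sequences are shown because they define the family and decide how well its reads can be told apart. They are RefSeq's (GRCm38.p6), 5′ to 3′, with the seed in capitals. RefSeq's table gave a 3p arm for 3 of the members:
miR-130a-3p: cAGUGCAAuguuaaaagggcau
miR-130b-3p: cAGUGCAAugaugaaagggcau
miR-301a-3p: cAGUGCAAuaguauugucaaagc

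These 3 arms share 1 seed and begin to differ just behind it. The arms of Mir130a and Mir130b are identical at 20 of 22 bases and differ by U11A and A13G, with positions counted from 1 at the 5′ end and the base of miR-130a-3p first. The arm of Mir301 matches that of Mir130a at 12 of the 22 bases compared, and that of Mir130b at 11. For Mir301b, miR-301b-3p is named only, so how alike it is to miR-301a-3p is not shown here.

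The 5p arms, from the other side of the hairpin, fall into different seed groups, again with the seed in capitals:
miR-130a-5p: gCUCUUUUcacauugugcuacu
miR-130b-5p: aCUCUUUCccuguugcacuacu
miR-301a-5p: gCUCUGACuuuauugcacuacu
miR-301b-5p: gCUCUGACuagguugcacuacu

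The 5p arms of Mir301 and Mir301b share a seed and differ by U10A, U11G and A12G, with the base of miR-301a-5p first. Those of Mir130a and Mir130b each have a seed of their own. The counts were made per gene, so reads of the 3p and 5p arms of a hairpin are summed.

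The shared seed is not limited to these genes. Of the 1738 mature arms in the RefSeq table, 7 carry the seed of miR-130a-3p, and 4 of those belong to genes outside the family as defined here:
miR-6341: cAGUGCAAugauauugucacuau
miR-721: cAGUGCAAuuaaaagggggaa
miR-6389: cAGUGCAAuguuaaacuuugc
miR-130c: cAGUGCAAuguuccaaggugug

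Mir6341 on chromosome 1, Mir721 on chromosome 5, Mir6389 on chromosome 7 and Mir130c on chromosome 9 had 0 reads in either library. A count of 0 allows a level of up to 1.26 CPM in replicate 1 and 0.676 CPM in replicate 2, from 3 counts of the total. CPM here is a gene's reads per 1000000 sense reads at miRNA genes, and these limits and all intervals cover counting error only. Among the annotated genes of this seed, reads were counted only at the members.

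The members lie at 3 places in the genome (mm10, GENCODE M21). Mir130a (ENSMUSG00000065484.1) lies at chr2:84741115-84741178 on the minus strand, where no other annotated gene overlaps it. The nearest gene on its strand is Gm19426, 990 bp away. Mir301 (ENSMUSG00000065589.1) lies at chr11:87113004-87113089 on the plus strand, in an intron of Ska2, which encodes a subunit of the spindle and kinetochore complex. Mir301b (ENSMUSG00000076288.1) lies at chr16:17124400-17124496 and Mir130b (ENSMUSG00000065572.1) at chr16:17124061-17124142, both on the minus strand in an intron of the protein-coding gene 2610318N02Rik. A gap of 257 bp separates this pair, with Mir301b upstream, and the whole cluster spans 436 bp. The RefSeq hairpins have the same places as the annotation for all 4 members.

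The hairpins differ in length and composition. Mir130a has a hairpin of 64 bases with 45.3% GC and a predicted folding energy of -22.1 kcal/mol. Mir130b has 82 bases, 56.1% GC and -30.1 kcal/mol. Mir301 has 86 bases, 48.8% GC and -37.0 kcal/mol, and Mir301b has 97 bases, 53.6% GC and -39.1 kcal/mol. No member shares a word of 20 bases or more with an annotated transcript of a gene lying elsewhere. The longest shared word had 17 bases for Mir130a, in Mir6389, and 18 for Mir130b, in Trmt9b. It had 16 for Mir301, in Prdm8 and likewise in Mir301b, and 17 for Mir301b, in Ypel5. Among the members themselves, the longest common words ran from 12 to 16 bases, with the 16 between Mir301 and Mir301b. Whether reads with mismatches were placed at the wrong member was not tested.

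The libraries held 2381663 sense miRNA reads in replicate 1 and 4436398 in replicate 2. Unmapped reads made up 30.8% of replicate 1 and 14.6% of replicate 2, and multimapping reads, which stand under no gene, 35.6% and 44.8%. Of the listed neuronal loci, all 8 had at least 1 read in 1 library or both, and 5 had at least 10 reads in total. The 8 summed to 90297 CPM (replicate 1) and 71445 CPM (replicate 2), with Mir132 leading at 69646 and 43349 CPM. Among the 5, only Mir132 was higher in replicate 1, so the sum follows Mir132. The 3 defining loci of miR-124 lay at 0 to 1.26 CPM. A read that maps to more than 1 of these loci would stand under no gene, and how many did was not tested. The values are therefore not a level of miR-124 in the cortex. Markers of pluripotent cells summed to 1.68 CPM in replicate 1 and 1.13 CPM in replicate 2.

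Mir130a carried most of the family's reads. Mir130a had 2197 reads in replicate 1 and 3382 in replicate 2. These are 922 CPM (95% Poisson interval 884 to 962) in replicate 1 and 762 CPM (737 to 788) in replicate 2, a mean of 842 ± 113 CPM (SD, n = 2). Both libraries placed it far above the other members, and it ranked 103 of the 2202 genes by mean level. The genes next to it in mean level were Mir212 above, at 899 ± 28.1 CPM, and Mir540 below, at 840 ± 95.2 CPM (SD, n = 2 each). Neither lay farther from Mir130a than the spread between the replicates.

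Mir130b, in the chromosome 16 cluster, was next in replicate 1 and gave almost the same level in both libraries. Mir130b had 236 reads in replicate 1 and 412 in replicate 2, which is 99.1 CPM (95% Poisson interval 86.9 to 113) and 92.9 CPM (84.1 to 102). The intervals overlap, and the mean was 95.98 ± 4.40 CPM (SD, n = 2), at rank 204. Its neighbours in mean level were Mir491 at 98.3 ± 37.5 CPM and Mir193b at 94.7 ± 0.301 CPM (SD, n = 2 each).

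Mir301, in the Ska2 intron, differed most between the libraries. Mir301 had 64 reads in replicate 1 and 1106 in replicate 2, which is 26.9 CPM (95% Poisson interval 20.7 to 34.3) and 249 CPM (235 to 264). It ranked 255 of 2202 genes in replicate 1 and 156 in replicate 2. Its mean of 138 ± 157 CPM (SD, n = 2) describes neither library. The mean order of Mir301 above Mir130b therefore does not hold beyond the spread: Mir130b stood above Mir301 in replicate 1 and below it in replicate 2. Mir351 at 138 ± 67.7 CPM and Mir3072 at 133 ± 68.2 CPM were nearest to its mean level (SD, n = 2 each).

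Mir301b, the upstream hairpin of the cluster, was close to the limit of detection. Mir301b had 8 reads in replicate 1 and 10 in replicate 2, which is 3.36 CPM (95% Poisson interval 1.45 to 6.62) and 2.25 CPM (1.08 to 4.15). The intervals overlap, and the mean was 2.81 ± 0.781 CPM (SD, n = 2), the lowest of the members in both libraries. Mir7083 at 2.84 ± 0.450 CPM and Gm27920 at 2.79 ± 2.75 CPM lay next to it (SD, n = 2 each). Short reads cover an arm and not the hairpin, so levels were not divided by hairpin length. Antisense reads were nearly absent: Mir130a had 1 in replicate 1, and no other member had any.

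**Figure D1:**
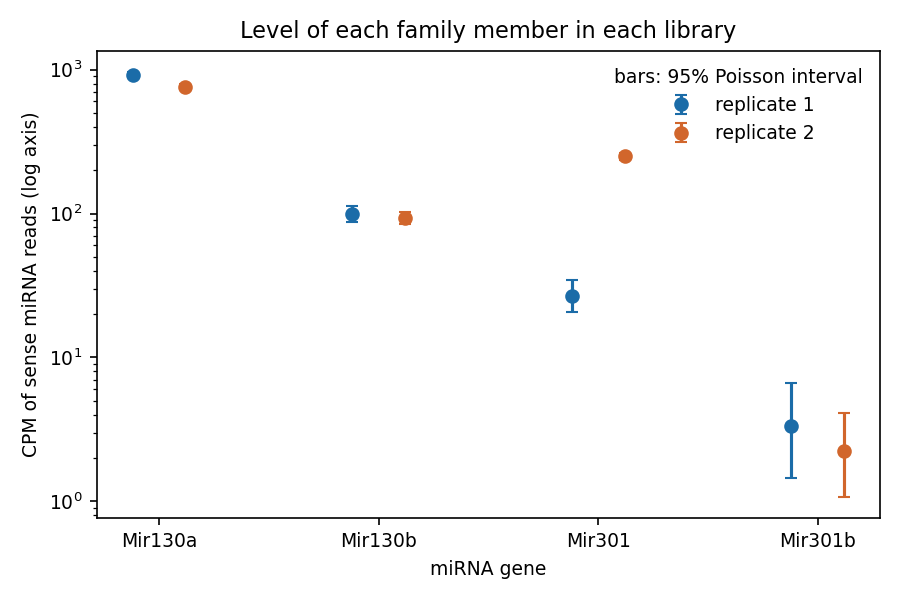
CPM of sense miRNA reads on a log axis for each member, with replicate 1 in blue left of replicate 2 in orange and bars for the 95% Poisson interval of the count. Mir130a, Mir130b and Mir301b lie close together in both libraries, while Mir301 lies at 26.9 CPM in the first library and at 249 CPM in the second.

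Relative to sense miRNA reads, the summed level of the family was close in both libraries although its make-up was not. The 4 genes had 2505 reads in replicate 1 and 4910 in replicate 2, which is 1052 CPM and 1107 CPM, a mean of 1079 ± 38.9 CPM (SD, n = 2). As a share of all sense reads this was 0.105% (95% Clopper-Pearson interval 0.101 to 0.109) and 0.111% (0.108 to 0.114) for replicates 1 and 2, and the intervals overlap. Without Mir301 the other 3 genes summed to 1025 CPM in replicate 1 and 857 CPM in replicate 2. Their shares of 0.102% (0.0985 to 0.107) and 0.0857% (0.0830 to 0.0885) do not overlap in their counting intervals. Both statements depend on the total: per 1000000 reads of all kinds, the family stood at 311 in replicate 1 and 401 in replicate 2, and the 3 genes without Mir301 at 304 and 311.

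Within the family, shares need no scaling between libraries. Mir130a held 87.7% of the family's reads in replicate 1 (95% Clopper-Pearson interval 86.4 to 89.0) and 68.9% in replicate 2 (67.6 to 70.2). Mir301 held 2.55% in replicate 1 (1.97 to 3.25) and 22.5% in replicate 2 (21.4 to 23.7). Mir130b held 9.42% (8.31 to 10.6) and 8.39% (7.63 to 9.20), and Mir301b 0.319% (0.138 to 0.628) and 0.204% (0.0977 to 0.374). The shares of Mir130a and Mir301 differ as the choice of Mir301 fixed, while those of the chromosome 16 pair overlap between the libraries. With Mir301 left out of the total, Mir130a held 90.0% in replicate 1 (88.7 to 91.2) and 88.9% in replicate 2 (87.9 to 89.9), which also overlap.

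**Figure D2:**
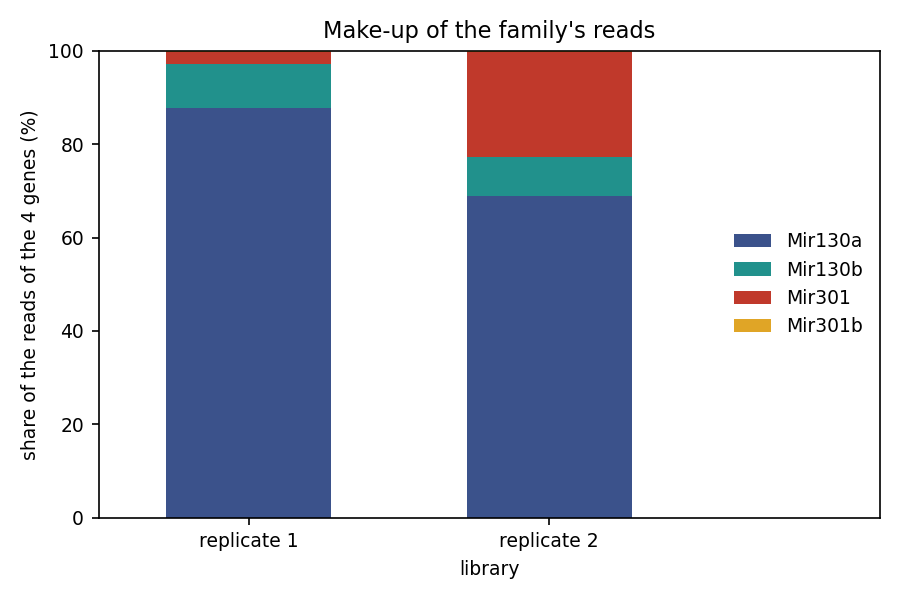
Share of the reads of the 4 genes (%) held by each member in replicate 1 and replicate 2, as stacked bars. Mir301 takes 2.55% of replicate 1 and 22.5% of replicate 2, and Mir301b, at 0.319% and 0.204%, is too small to see.

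Ratios between members in the same library also need no scaling. There were 9.31 reads of Mir130a per read of Mir130b in replicate 1 (95% exact interval 8.14 to 10.7) and 8.21 in replicate 2 (7.41 to 9.11). These overlap, and the hairpins lie on different chromosomes. Against Mir301, Mir130a had 34.3 reads per read in replicate 1 (26.8 to 44.7) and 3.06 in replicate 2 (2.86 to 3.28), a difference that the choice of Mir301 by these counts fixed. Mir130b had 3.69 reads per read of Mir301 in replicate 1 (2.79 to 4.94) and 0.373 in replicate 2 (0.332 to 0.418), which rests on the same counts of Mir301.

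The chromosome 16 pair lay in 1 intron but far apart in level. Mir130b had 29.5 reads per read of Mir301b in replicate 1 (95% exact interval 14.7 to 69.1) and 41.2 in replicate 2 (22.2 to 86.6), with overlapping intervals. On the log2(CPM + 1) scale the levels of this pair differed by 4.52 in replicate 1 and 4.85 in replicate 2. To set this beside other clusters, all neighbouring miRNA genes on the same strand with a gap of at most 1 kb and at least 10 reads each over both libraries were taken, which gave 67 other pairs. Their median absolute level difference, averaged over the libraries, was 2.53 on the log2 scale, with a range of 0.05 to 8.14. The value for Mir130b and Mir301b was 4.69, and 15 of the 67 other pairs lay farther apart. The level difference of Mir130b and Mir301b moved by 0.33 between the libraries, against a median of 0.66 for the other pairs, 17 of which moved less. As read ratios without the pseudocount, the log2 values were 4.88 in replicate 1 and 5.36 in replicate 2. Mir301b had only 8 and 10 reads, so the place of this move among the pairs is not settled. Some of the other pairs hold loci with a further copy in the genome, such as Mir29b-1 and Mir24-1. Reads that map to more than 1 copy would stand under no gene, and how far this changed the level differences was not tested. Neighbouring pairs can share a gene, so these values are a description.

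**Figure D3:**
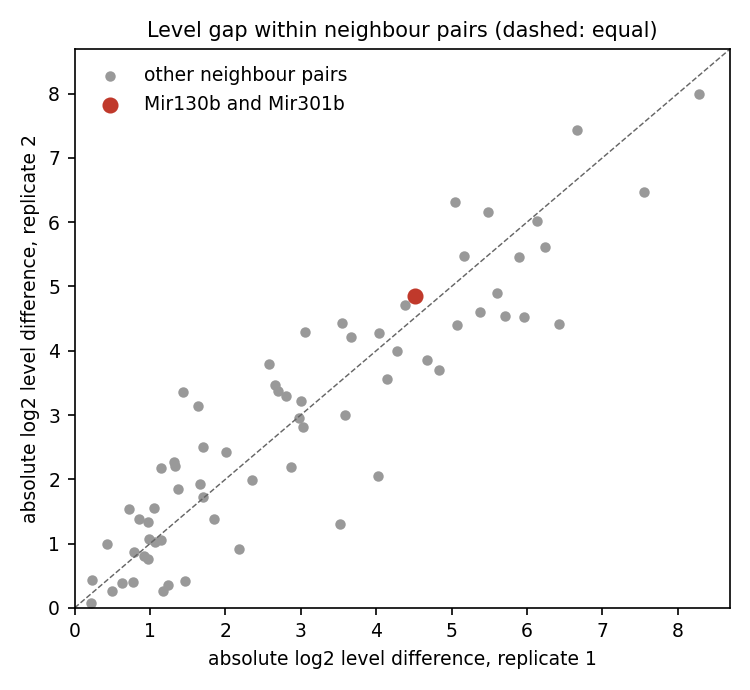
Absolute difference in log2(CPM + 1) between neighbouring miRNA genes on the same strand, in replicate 1 on the x axis and replicate 2 on the y axis, 1 point a pair. Mir130b and Mir301b, in red, lie at 4.52 and 4.85, near the dashed line of equal values and among the wider pairs.

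The difference between the libraries is the value on which Mir301 was selected, so it is given without a test. Ratios are replicate 1 over replicate 2 on the log2(CPM + 1) scale after TMM scaling, with a standard error for counting noise alone. Mir301 had a log2 ratio of -3.14 ± 0.18, a level 8.81-fold higher in replicate 2 after scaling. Mir130a had a log2 ratio of 0.30 ± 0.04, Mir130b 0.12 ± 0.12 and Mir301b 0.44 ± 0.50. The ratios of Mir130b and Mir301b are within their counting error or close to it, and that of Mir130a is small but several times its counting error. With all reads of a library as its total, the ratios were -0.016 for Mir130a and -0.19 for Mir130b, a scaling that moved the median of all 472 genes by -0.22. Apart from the pseudocount, which weighs more on genes of low level, a change of total moves every gene by the same amount. Of the 4 members, 1 differed by at least 2-fold, which was Mir301, higher in replicate 2. The same was true of 15.7% of the 472 genes with at least 10 reads in total, 7.63% higher in replicate 1 and 8.05% higher in replicate 2. Of the genes at least 2-fold apart, 48.6% were higher in replicate 1, and 30.9% with all reads as the total. The median absolute log2 ratio over those genes was 0.42. Only Mir301 and Mir26a-1 (log2 ratio 4.44) of the 472 genes had an absolute log2 ratio of 3 or more.

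**Figure D4:**
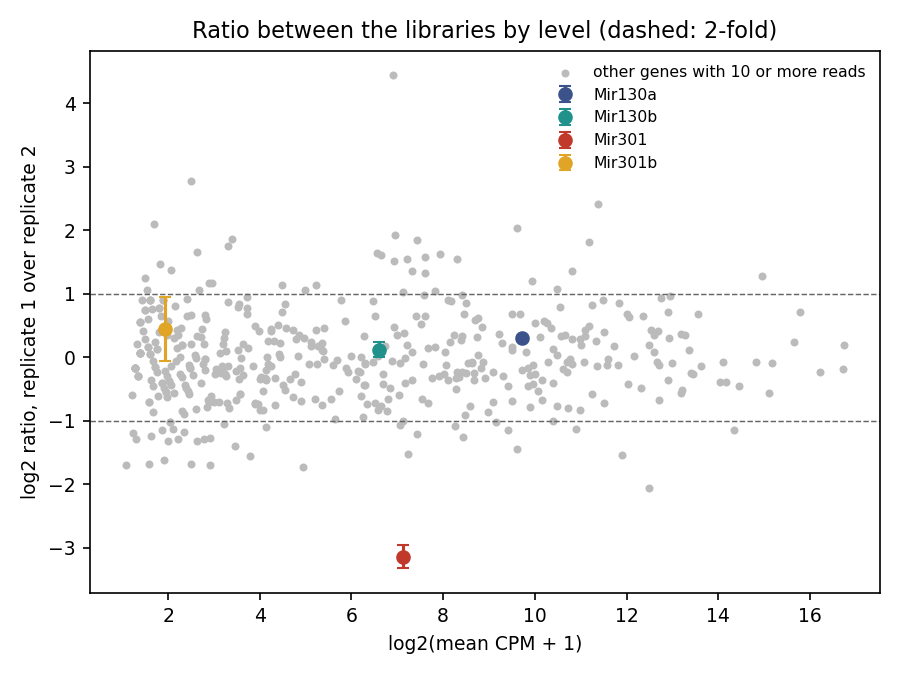
Log2 ratio of replicate 1 over replicate 2 against log2(mean CPM + 1) for the 472 genes with at least 10 reads in total, in grey, and the members in colour with bars of 1 counting standard error. Mir301, at -3.14, lies apart from the grey points of its level, and the other members lie inside the dashed 2-fold lines.

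No other gene of at least 100 mean CPM came near the ratio of Mir301. The nearest over these 2 libraries, by absolute difference of log2 ratios, were Mir99b (log2 ratio -2.06), Mir195a (-1.54), Mir296 (-1.53), Mir181b-2 (-1.44) and Mir467d (-1.25). Even Mir99b lay 1.08 log2 units from Mir301. Mir99b had 5197 reads in replicate 1 and 41286 in replicate 2.

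Cell type markers were set beside the ratio of Mir301. Of the 21 marker loci with at least 10 reads in total, 3 were at least 2-fold higher in replicate 1 and 0 in replicate 2. Among all 472 genes the shares were 7.63% and 8.05%, and with so few loci neither count is far from them. The 3 were Mir451a of red cells (log2 ratio 1.14), Mir142 of blood lineages (1.61) and Mir34c of ciliated cells (1.62). The other erythroid loci, Mir486 and Mir144, had ratios of 0.02 and 0.26. The other leukocyte loci, Mir150 and Mir223, had -0.03 and 0.50. The other choroid plexus and ciliated cell loci ran from 0.23 to 0.80. With all reads as the total, 2 neuronal loci passed 2-fold higher in replicate 2, Mir138-1 (log2 ratio -1.04) and Mir138-2 (-1.11), and Mir451a, at 0.78, no longer passed. By that total, 47 of the 472 genes were at least 2-fold higher in replicate 2 and 21 in replicate 1. The endothelial Mir126a stood at 17007 and 18138 CPM in replicates 1 and 2, a log2 ratio of -0.07. The loci of mural cells, the muscle cells and pericytes of vessels, had ratios of 0.68 and 0.96 and sums of 10855 and 5719 CPM. The oligodendrocyte list summed to 4684 and 3502 CPM in replicates 1 and 2, the leukocyte list to 1868 and 1830 CPM, the choroid plexus and ciliated cell list to 1084 and 738 CPM, and the erythroid list to 97.8 and 67.4 CPM. Sums hide members that differ: Mir150 made up most of the leukocyte sum, at 1701 and 1769 CPM, while Mir142 stood at 149.9 and 49.4 CPM. In the choroid plexus and ciliated cell list, Mir34c stood at 368 and 121 CPM. In the oligodendrocyte list, only Mir338 was higher in replicate 1, at 3079 and 1778 CPM. Mir219a-2 stood at 1600 and 1718 CPM and Mir219a-1 at 5.88 and 6.09 CPM. Mir451a, at 50.0 and 22.5 CPM, made most of the difference in the erythroid sum. Of the 5 neuronal loci with at least 10 reads, ratios ran from -0.79 to 0.71, with a median of -0.38. Only Mir132 was higher in replicate 1, and the others, such as Mir128-1 at -0.38 and Mir128-2 at -0.12, were higher in replicate 2. The part of cell make-up, and of the shares of unmapped and multimapping reads, in the Mir301 difference was not tested.

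The miR-148 and miR-152 family has a seed offset from that of miR-130 and miR-301. Its 3 loci had 0 members at least 2-fold apart and a median log2 ratio of -0.12. Among the 472 genes with at least 10 reads, 15.7% were at least 2-fold apart, and 3 loci are too few to differ from that share. Mir148b had 56.7 CPM in replicate 1 and 89.0 CPM in replicate 2, Mir152 had 44.9 and 49.8 CPM, and Mir148a had 41.1 and 38.5 CPM. Summed, they reached 160 ± 24.5 CPM (SD, n = 2), well under the 842 CPM of Mir130a alone.

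Of the loci reported to repress Pparg, Mir27b stood at 2490 and 1889 CPM in replicates 1 and 2, and Mir27a, at 299 and 148 CPM, was at least 2-fold higher in replicate 1 after scaling (log2 ratio 1.04). It fell short of 2-fold with TMM factors from all genes (0.94) and with all reads as the total (0.71).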

How the data were processed

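Small RNA libraries of left cerebral cortex, 1 group of 2 replicates, were analysed from the tables that the authors deposited. These hold raw read counts per miRNA gene on mm10 with the M21 annotation, per the notes deposited with each table. The aligner was not given in the sources used here. Counts of the gene's strand (column 3) were used, and the 4 summary lines were kept out of totals. All 2202 gene IDs matched GENCODE M21. CPM used the sense miRNA reads of each library as the total. Log2 ratios used a pseudocount of 1 CPM and TMM factors (0.99 and 1.01, edgeR 4.0.16 in R 4.3.3) from genes with at least 10 reads in total. Their calculation was tested on simulated Poisson counts with library totals in place of TMM factors, so the scaling itself was not tested. Hairpins were folded with RNAfold 2.7.2, and shared words of at least 16 bases were searched in annotated transcripts on both strands. Sequences are RefSeq's, matched by symbol. Python 3.11.15, scipy 1.17.1 and DESeq2 1.42.0 (size factors only) were also used.

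No test was run: 1 group allows none between conditions, and the ratio between the libraries chose the members. The members, the lists and the rule for named genes (members, genes of the same seed, neighbours in level, the 5 nearest in ratio, up to 3 per list) were set with earlier results of these data known. Mir126a, Mir132 and the remaining marker loci belong to such lists. A further list is not reported here.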

Additional observations from a re-analysis of the deposited data

How the results depend on the processing

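Of 100 recalculations of 21 results, 79 left the value within its spread, a 2-fold difference on its side of the threshold, or a count within 1.5 times. Where that spread is the SD of the 2 libraries, leaving 1 of them out always stays within it. Those recalculations could not change the result. A second edgeR scaling (RLE) gave the same size factors as DESeq2, and both were counted. The 79 therefore overstates how firm the values are. The recalculations for 6 loci outside the family, which include 5 of those that changed, were added after seeing the data. Levels scale with the total: with all reads as the total, Mir130a stood at 275, Mir130b at 31.5, Mir301b at 0.906 and the family at 356 CPM, and with mapped reads at 359, 40.9, 1.20 and 460 CPM. Counting both strands drops ambiguous reads from the total and gave 105 CPM for Mir130b and 1180 CPM for the family. Mir301 moved less than its own spread, but that spread spans 26.9 CPM without replicate 2 and 249 CPM without replicate 1. The log2 ratio turned to -0.016 for Mir130a and -0.19 for Mir130b with all reads as the total, so the direction of neither is settled, and that of Mir130a was 0.20 with TMM factors from all genes, an alternative added after seeing the data. Mir301 stayed between -3.35 and -2.79 under every scaling and pseudocount tried. The 74 of 472 genes at least 2-fold apart became 33 of 472 with a pseudocount of 10 CPM. They were 49 of 367 genes when each library had to hold 10 reads, and 34 of 201 genes of at least 100 CPM. These latter counts fell along with the number of genes tested. No paired analysis was possible because there is 1 group. With 8 and 10 reads, Mir301b is limited by depth.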
